A study of Homo sapiens with 24 samples.

Results

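Interferon-stimulated genes were followed in PPC1 cells, an established prostate cancer cell line, and in the polyploid giant cancer cells (PGCC) that form from them after irradiation. The list held 45 genes, chosen by name with earlier results of these data known. Its shares set beside those of all genes are therefore descriptive only. All 45 were found as protein-coding rows among the 48162 genes of the deposited count table. RNA-seq was made of 4 conditions with 6 libraries each, 24 libraries in all, and the experiment was done 6 independent times with the 4 conditions harvested in parallel. The parental cells had no treatment (UT). Parental cells with LCL521 (UT_LCL) had 5 μM of LCL521, a pro-drug that inhibits the lysosomal enzyme acid ceramidase, for 5 h before harvest. PGCC came from cells given 8 Gy of radiation on day 2 and harvested on day 5, and were enriched as the cells held back by a 20 micron filter. PGCC with LCL521 (PGCC_LCL) had the radiation, the filter and 5 μM LCL521 for the last 5 h. Parental cells passed through neither step, so radiation, cell size and filtration cannot be told apart in these data. The questions were how the interferon-stimulated genes differ between parental cells and PGCC, and whether 5 h of LCL521 moves them in either population.

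Interferons are secreted proteins that bind receptors on the cell surface. The receptors act through JAK kinases on STAT proteins, and a complex that holds STAT2 and IRF9 then enters the nucleus and binds the interferon-stimulated response element (ISRE) in promoters. Interferon gamma acts mainly through another element, the gamma-activated sequence (GAS). The genes switched on in this way bind or cut viral RNA, modify proteins with ISG15, block viral entry and budding, or feed back on the signal. IRF1, IRF3 and IRF7 can act on many of the same elements, and RNA or DNA in the cytosol is sensed by other proteins of the same system.

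The promoters of the list were searched for these elements, and 11 stretches are printed for genes described below: genes that rose by large and by smaller steps, the gene that fell, a gene that did not pass the test and a gene at the limit of detection. Sequences were taken from RefSeq on GRCh38.p14, a different build from the hg19 coordinates of the count table. Each window ran from 250 bases before to 50 bases after the start of the gene, and 36 of the 45 genes matched an entry. The unmatched genes were USP18, IFIT2, OAS2, OASL, MX2, GBP2, IFITM2, PML and TRIM22. Capitals mark the ISRE letters, which are GAAA, any 2 bases and GAAA again, or, for IRF1, the GAS letters TTCNNNGAA. Both were searched on both strands, so that a match on the other strand appears as its reverse complement. All are given 5′ to 3′ on the strand of the gene.
SAMD9, chr7:93118091-93118130, minus strand: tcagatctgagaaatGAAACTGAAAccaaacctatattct
OAS3, chr12:112938316-112938473, plus strand: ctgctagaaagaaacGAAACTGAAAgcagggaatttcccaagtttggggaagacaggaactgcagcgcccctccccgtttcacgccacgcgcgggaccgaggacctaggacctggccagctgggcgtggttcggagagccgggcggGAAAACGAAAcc
GBP1, chr1:89065311-89065350, minus strand: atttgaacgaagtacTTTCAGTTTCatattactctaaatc
BST2, chr19:17405730-17405775, minus strand: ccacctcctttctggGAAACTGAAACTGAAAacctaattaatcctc
IFI6, chr1:27672261-27672363, minus strand: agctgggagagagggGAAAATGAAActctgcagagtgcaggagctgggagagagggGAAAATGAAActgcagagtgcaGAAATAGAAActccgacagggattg
ISG15, chr1:1013369-1013414, plus strand: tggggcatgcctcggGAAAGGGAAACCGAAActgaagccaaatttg
IFIT1, chr10:89392492-89392544, plus strand: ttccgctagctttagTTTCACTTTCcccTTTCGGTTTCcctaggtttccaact
IFIT5, chr10:89414508-89414573, plus strand: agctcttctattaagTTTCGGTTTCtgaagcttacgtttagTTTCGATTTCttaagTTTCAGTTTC
EIF2AK2, chr2:37156977-37157001, minus strand: ggcggagtccaagggGAAAACGAAA
EPSTI1, chr13:42992267-42992306, minus strand: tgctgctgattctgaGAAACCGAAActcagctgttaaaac
IRF1, chr5:132490874-132490912, minus strand: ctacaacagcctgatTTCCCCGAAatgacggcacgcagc

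The ISRE letters stood in the windows of 24 of the 36 matched genes (66.7%), against 3.57% of all 35114 promoter entries and 4.38% of the 27303 genes they belong to. The GAS letters stood in 10 of the 36 (27.8%), against 7.66% of all entries and 9.38% of their genes. IFI6 held 3 ISRE matches between 156 and 93 bases before its start, and IFIT5 held 3 between 45 and 4 bases before. A match describes letters only. It does not show that a factor binds there.

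Total counts lay between 14835246 and 19906601 per library, so that a floor of 3 counts, counting error only, lay between 0.15 and 0.207 CPM. CPM are counts relative to library size, here with library sizes scaled by TMM, a method that removes differences in library composition. The cells were sequenced in bulk, so that fewer cells expressing a gene and less RNA per cell cannot be told apart. The line expressed KRT8, KRT18 and VIM well, while the prostate luminal markers KLK3 and TMPRSS2 were at or under the floor in every library. Summed leukocyte markers lay between 0.464 and 2.97 CPM in parental cells and between 3.38 and 4.89 CPM in PGCC, with PTPRC making up most of the sum. CD3E and CD68 were at 0 in both, while LYZ and ITGAM were at 0 in every parental library and reached 0.287 and 0.723 CPM in PGCC. Summed fibroblast markers lay between 0.116 and 1.51 CPM in parental cells and between 3.28 and 4.18 CPM in PGCC, with PDGFRA making up most of it. The part of other cells in the results was not tested.

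Most measurable interferon-stimulated genes were higher in PGCC than in parental cells. Of the 32 genes with enough counts to be tested, 28 were higher, 1 was lower and 3 did not pass the test (edgeR quasi-likelihood test on 6 against 6 libraries, Benjamini-Hochberg adjusted over all 13812 genes tested, threshold 0.05). Over all genes tested, 23.1% were higher and 24.3% were lower. The filter asked for enough counts in as many libraries as 1 condition holds. OAS2, BST2 and HERC5 were dropped when only parental libraries were compared, so they entered the 32 through PGCC, where they are high. Their rises are not separate from that filter. With at least 10 counts required in every library, these genes, GBP1, SAMD9L and IFI44L were not tested. The 32 genes had a median log2 fold change of 1.60, where all genes tested had -0.03, and 20 of the 32 rose by more than 2-fold, compared with 11% of all genes tested. In 22 genes every PGCC library lay above every parental library, against 13.9% of all genes, and in 1 every PGCC library lay below, against 12.9%. The 28 genes that rose were each higher in PGCC in 6 of 6 harvests. The 28 that rose and the gene that fell kept their calls when the harvest was entered as a block, a fit in which 27.9% of all genes tested were higher and 28.3% lower.

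The libraries with LCL521 gave the same contrast in other libraries of the same harvests, so they do not repeat the first comparison independently. Same-numbered libraries with and without LCL521 deviated together (correlations 0.557 to 0.869 in parental cells and 0.402 to 0.648 in PGCC). Of 34 genes tested there, 29 were higher in PGCC with LCL521 than in parental cells with LCL521, 1 was lower and 4 did not pass, while 25.0% of all 13818 genes tested were higher and 23.9% lower. With the block the counts were again 29 and 1, and the shares of all genes were 29.5% and 26.8%. Here OAS2, BST2, HERC5, IFITM1 and RSAD2 entered through the PGCC libraries, where they are high, so their rises are not separate from the filter. The 34 genes had a median log2 fold change of 1.58, where all genes tested had -0.01. In 24 genes the groups were apart with PGCC higher, against 14.4% of all genes tested, and in 1 they were apart with PGCC lower, against 13.7%. The calls agreed for 27 genes that rose in both comparisons and for IFIT5, which fell in both. USP18 passed in the comparison without LCL521 and not in the other. Among the 32 genes tested in both, the widest gap between the fold changes was 0.53 on the log2 scale, for OAS2.

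**Figure D1:**
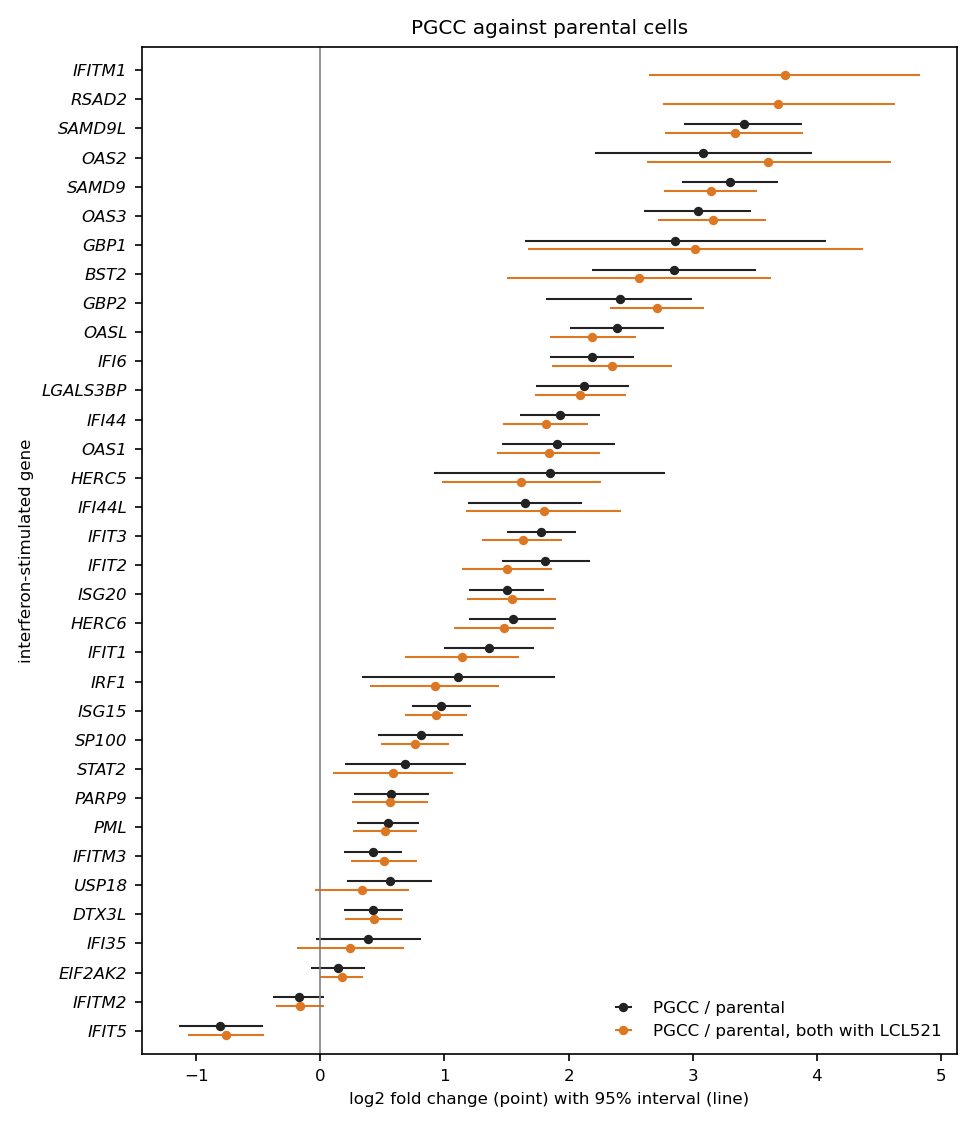
Log2 fold change (point) and its 95% interval (line) of PGCC against parental cells without LCL521 (black) and with LCL521 in both (orange), for each interferon-stimulated gene tested, ordered by the mean of the fold changes. The orange and black points of a gene lie close together from IFIT5, at -0.81 and -0.76, up to SAMD9L, at 3.41 and 3.34, and IFITM1 and RSAD2 were tested only with LCL521.

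The SAMD9 pair had the largest rises among the genes tested in the first comparison. SAMD9 and SAMD9L are neighbouring genes on chromosome 7 whose proteins restrict poxviruses and slow protein synthesis. SAMD9 lay between 5.97 and 13.5 CPM in parental cells, with a median of 8.63, and between 77.5 and 106 CPM in PGCC, with a median of 93.3. Its fold change was 9.88 (log2 3.30 ± 0.18 SE, n = 6 against 6, edgeR adjusted p = 2.05e-08). SAMD9L, at a lower level, went from a median of 0.928 CPM, with a range of 0.415 to 1.14, to a median of 9.55 CPM, with a range of 6.41 to 10.9. That is 10.6-fold (log2 3.41 ± 0.22, edgeR adjusted p = 8.34e-08). In neither gene did the groups overlap.

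The oligoadenylate synthetases rose together. OAS1, OAS2 and OAS3 make the short 2′-5′-linked adenylates that activate RNase L, and OASL is a relative without that activity. OAS3 had a parental median of 3.09 CPM (1.92 to 4.81) and a PGCC median of 24.9 CPM (22.6 to 29.4), which is 8.22-fold (log2 3.04 ± 0.20, edgeR adjusted p = 8.50e-08). OASL had a parental median of 6.61 CPM (4.17 to 8.30) and a PGCC median of 33.2 CPM (24.8 to 43.0), a rise of 5.25-fold (log2 2.39 ± 0.18, edgeR adjusted p = 2.33e-07). OAS1 went from a median of 2.54 CPM (1.52 to 3.73) to 9.66 CPM (7.30 to 11.3), 3.77-fold (log2 1.91 ± 0.21, edgeR adjusted p = 6.66e-06). In all of these the lowest PGCC library was above the highest parental library. OAS2 was far scarcer, with 16 counts over the 6 parental libraries and 149 over the 6 PGCC libraries. Its median went from 0.116 CPM (0.058 to 0.406) to 1.5 CPM (0.857 to 1.90), and its fold change of 8.48 had a 95% interval from 4.63 to 15.5 (edgeR adjusted p = 3.25e-05). OAS1, OAS2 and OAS3 lie side by side on chromosome 12 under an antisense gene, RP1-71H24.1, that spans from 96.7% to 100% of each, and no source says whether the counting used the strand.

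Other enzymes that act on RNA did not move alike. ISG20, an exonuclease that degrades single-stranded RNA, had a parental range of 5.17 to 8.64 CPM and a PGCC range of 16.9 to 21.1 CPM, a log2 fold change of 1.5 ± 0.14 (edgeR adjusted p = 1.49e-06). EIF2AK2, the kinase PKR that stops translation when it meets double-stranded RNA, was abundant in both. It had a median of 77.1 CPM (62.4 to 91.0) in parental cells and 84.1 CPM (73.2 to 92.3) in PGCC, and its log2 fold change of 0.14 did not pass the test (95% interval of the fold 0.948 to 1.28, edgeR adjusted p = 0.273). The ISRE letters stood 6 bases before the start of EIF2AK2, as printed above.

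Of the antiviral GTPases, GBP1 and GBP2 rose while MX1 and MX2 could not be tested. Guanylate-binding proteins coat vacuoles and bacteria inside the cell and are known as targets of interferon gamma. GBP1 had a parental median of 1.06 CPM (0.058 to 1.96) and a PGCC median of 9.62 CPM (1.85 to 10.1). Its fold change was 7.27 with a 95% interval from 3.15 to 16.8 (edgeR adjusted p = 8.72e-04). Its ranges overlapped slightly, because replicates 4 and 5 were low in both conditions. GBP2 had a parental median of 3.36 CPM (0.986 to 3.73) and a PGCC median of 15.2 CPM (10.3 to 17.8), a rise of 5.30-fold (log2 2.41 ± 0.27, edgeR adjusted p = 8.68e-06), with no overlap between the groups. In this annotation the gene GBP7 covers 42.2% of the span of GBP2 on the same strand, so the counts of GBP2 are uncertain. MX1 and MX2, which trap incoming viral capsids, had at most 3 counts in every library of all 4 conditions.

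Of the membrane proteins tested, BST2, IFI6 and IFITM3 rose and IFITM2 did not pass. BST2, the tetherin that holds budding virions to the cell, went from a median of 0.254 CPM (0.116 to 0.415) to 1.89 CPM (1.18 to 2.64), a rise of 7.23-fold (log2 2.85 ± 0.31, edgeR adjusted p = 5.29e-06). IFI6, of the mitochondrial and endoplasmic reticulum membranes, went from 2.42 CPM (1.69 to 3.26) to 11.4 CPM (9.84 to 12.9), 4.57-fold (log2 2.19 ± 0.16, edgeR adjusted p = 2.05e-07). Neither had overlapping groups. The IFITM proteins hinder the fusion of virions with endosomes. IFITM3 rose by 0.42 ± 0.11 on the log2 scale (edgeR adjusted p = 5.22e-03), from 12.2 to 19.7 CPM in parental cells and from 19.8 to 23.6 CPM in PGCC. IFITM2 had 41.0 to 54.1 CPM in parental cells and 36.8 to 48.6 CPM in PGCC, and its log2 fold change of -0.17 did not pass (edgeR adjusted p = 0.147). Without replicates 4 and 5 it did pass, at -0.28 (edgeR adjusted p = 0.0278). Other rows of the annotation, in part on the same strand, cover 36.2% of IFITM2 and 88% of IFITM3, so their counts are uncertain.

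IFITM1 and RSAD2 were near the limit of counting in parental cells and could be counted in PGCC. IFITM1 had 8 counts over the 6 parental libraries and 101 over the 6 PGCC libraries, which is up to 0.180 CPM in parental cells and 0.5 to 1.62 CPM in PGCC. RSAD2, the viperin that makes a chain-terminating nucleotide, had 4 counts in the parental libraries and 75 in PGCC, up to 0.117 CPM and 0.451 to 0.968 CPM. Neither was kept by the filter in the first comparison. With no filter both were higher in PGCC, IFITM1 with an edgeR adjusted p of 4.35e-05 and RSAD2 with 1.89e-05, and every PGCC library was above every parental library. With LCL521 in both populations they passed the filter, with fold changes of 13.3 for IFITM1 (95% interval 6.26 to 28.4, edgeR adjusted p = 3.72e-05) and 12.9 for RSAD2 (95% interval 6.76 to 24.7, edgeR adjusted p = 1.01e-05). They entered through the PGCC libraries with LCL521, with 119 and 102 counts against 8 and 7 in parental cells with LCL521. Passing the filter is therefore no separate support for their rise. IFITM1 lies wholly within the span of the IFITM2 row in this annotation, on the same strand, so its counts are uncertain. CMPK2, a nucleotide kinase next to RSAD2, had 7 counts over the parental libraries and 23 over the PGCC libraries, with overlapping ranges, and could not be tested.

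**Figure D2:**
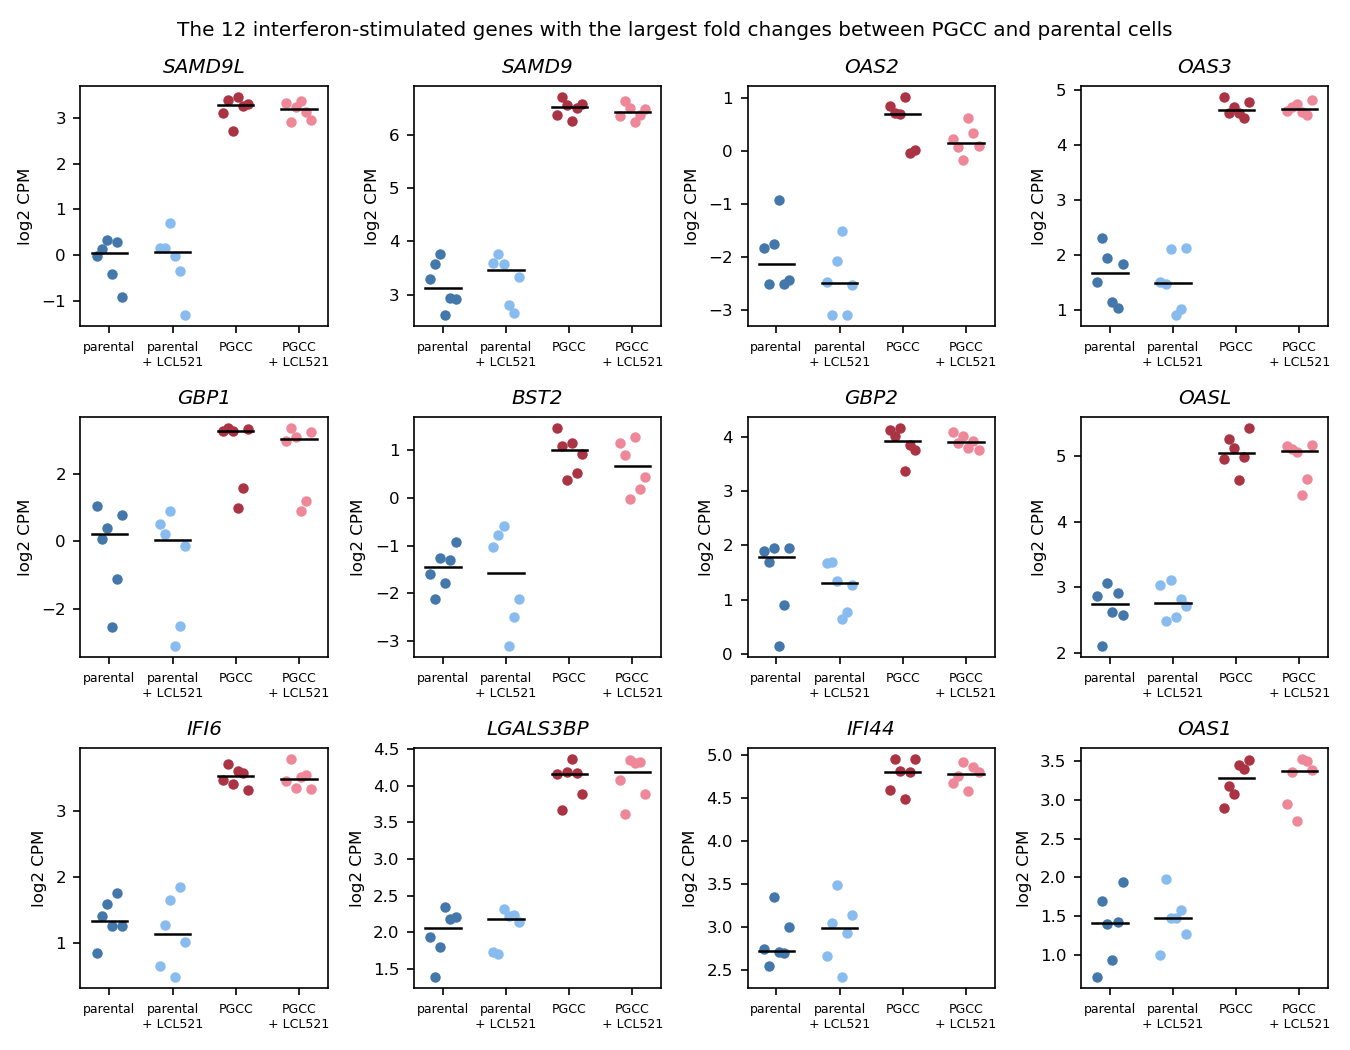
Log2 CPM with a prior count of 2 in each library (point) and the median of the 6 libraries (bar) for the 12 interferon-stimulated genes with the largest fold changes between PGCC and parental cells, in 4 conditions, each panel with its own axis. In 11 panels both PGCC groups stand clear of both parental groups and the groups with and without LCL521 overlap. In GBP1 the 2 low points of each PGCC group, replicates 4 and 5, come down to the level of the highest parental points.

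IFIT genes held the gene that went the other way. IFIT proteins bind viral RNA by its 5′ end, and the genes lie in a row on chromosome 10. IFIT2 had a parental range of 21.5 to 49.9 CPM and a PGCC range of 101 to 142 CPM, a log2 fold change of 1.81 ± 0.17 (edgeR adjusted p = 1.30e-06). IFIT3 had ranges of 10.1 to 17.1 CPM and 39.7 to 44.2 CPM, a log2 fold change of 1.78 ± 0.13 (edgeR adjusted p = 2.27e-07). IFIT1 had ranges of 16 to 31.3 CPM and 45.2 to 63.7 CPM, a log2 fold change of 1.36 ± 0.17 (edgeR adjusted p = 1.75e-05). None of these ranges overlapped. IFIT5, which differs from its relatives in binding RNA with a 5′-monophosphate as well, had 23.0 to 45.5 CPM in parental cells (median 30.3) and 16.1 to 19.9 CPM in PGCC (median 18.3). It fell by 0.81 ± 0.16 on the log2 scale (edgeR adjusted p = 8.59e-04), was lower in 6 of 6 harvests, and its groups did not overlap. With LCL521 it fell by 0.76 (edgeR adjusted p = 5.61e-04). Its promoter window held 3 ISRE matches, as many as that of IFI6. In this annotation the gene LIPA on the opposite strand spans IFIT1, IFIT2 and IFIT3 whole and does not reach IFIT5.

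The tested genes of the ISG15 system rose, HERC5 and HERC6 by larger steps than ISG15 and USP18. ISG15 is a ubiquitin-like protein that HERC5 attaches to newly made proteins and USP18 removes. Per kilobase of gene length ISG15 was the most abundant gene of the list, with a median of 95.7 CPM per kb in parental cells and 183 CPM per kb in PGCC, followed by IFITM2 with 75.3 and 64.7 CPM per kb. ISG15 lay between 51.5 and 84.4 CPM in parental cells and between 122 and 145 CPM in PGCC, a log2 fold change of 0.97 ± 0.11 (edgeR adjusted p = 8.03e-06). HERC5 was scarce, with 0.0692 to 0.990 CPM in parental cells and 1.06 to 2.17 CPM in PGCC, and rose by 1.85 ± 0.44 on the log2 scale (edgeR adjusted p = 3.14e-03). HERC6 rose by 1.55 ± 0.16 (edgeR adjusted p = 4.42e-06). The groups did not overlap in ISG15, HERC5 or HERC6. USP18 had 3.89 to 7.30 CPM in parental cells and 6.84 to 9.68 CPM in PGCC, and rose by 0.56 ± 0.16 (edgeR adjusted p = 0.0104). With LCL521 in both, its log2 fold change of 0.33 did not pass (edgeR adjusted p = 0.134), nor did it in the first comparison without replicates 4 and 5 (log2 0.32, edgeR adjusted p = 0.0884) or without replicate 5 (0.0501). The conjugating enzyme UBE2L6 was at 0.233 CPM or less in parental cells and 0.460 CPM or less in PGCC and could not be tested.

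The tested factors of the response, STAT2 and IRF1, rose with a wide spread between harvests. STAT2 had 11.1 to 29.3 CPM in parental cells and 19.5 to 36.7 CPM in PGCC, a log2 fold change of 0.69 ± 0.23 (edgeR adjusted p = 0.0228) with overlapping ranges. Its call was lost without replicate 2 (edgeR adjusted p = 0.0736), without replicate 3 (0.0556) or without replicate 5 (0.0592). With LCL521 in both it rose by 0.59 (edgeR adjusted p = 0.0434), a call lost without the same replicates (0.120, 0.131 and 0.114). IRF1 had 6.00 to 19.1 CPM in parental cells and 11.3 to 41.0 CPM in PGCC, a log2 fold change of 1.11 ± 0.36 (edgeR adjusted p = 0.0210), higher in 6 of 6 harvests. Its call was lost without replicate 1 (0.0538) or without replicate 2 (0.0685). With the harvest as a block the edgeR adjusted p was 3.12e-04 for STAT2 and 1.6e-05 for IRF1. IRF9 had 34 counts over the parental libraries and 94 over the PGCC libraries. It was not kept by the filter, and with no filter its log2 fold change was 1.33 ± 0.49 (edgeR adjusted p = 0.0499). The gene RNF31 covers IRF9 wholly on the same strand in this annotation, so its counts are uncertain.

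Genes of nuclear bodies and of the PARP9 complex rose by less than 2-fold. SP100, a nuclear body protein, had 15.8 to 31.8 CPM in parental cells and 35.6 to 54.9 CPM in PGCC, a log2 fold change of 0.81 ± 0.16 (edgeR adjusted p = 8.87e-04). PML, the scaffold of the same bodies, rose by 0.54 ± 0.12 (edgeR adjusted p = 1.65e-03). PARP9 and DTX3L, partners in an ADP-ribosyl transferase and ubiquitin ligase complex, share a promoter region with opposite orientation. They rose by 0.57 ± 0.14 (edgeR adjusted p = 4.02e-03) and 0.43 ± 0.11 (edgeR adjusted p = 6.20e-03). The ranges of SP100 and PML did not overlap and those of PARP9 and DTX3L did. Other rows of the annotation, in part on the same strand, cover 18.8% of SP100. TRIM22, the remaining nuclear body gene, had no count in any PGCC library and 1 count over the 6 parental libraries.

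Among the remaining genes LGALS3BP, a secreted galectin-binding glycoprotein, went from a median of 4.06 CPM (2.49 to 4.99) to 17.8 CPM (12.6 to 20.5), 4.34-fold (log2 2.12 ± 0.18, edgeR adjusted p = 5.50e-07). IFI44 went from a median of 6.51 CPM (5.74 to 10.0) to 27.8 CPM (22.3 to 30.8), 3.81-fold (log2 1.93 ± 0.15, edgeR adjusted p = 3.26e-07). IFI44L, its neighbour, rose by 1.65 ± 0.22 on the log2 scale at a lower level, from 0.484 to 1.17 CPM up to 1.99 to 3.35 CPM (edgeR adjusted p = 2.93e-05). None of these groups overlapped. IFI35 had 2.07 to 5.07 CPM in parental cells and 3.57 to 5.17 CPM in PGCC, and its log2 fold change of 0.39 did not pass (edgeR adjusted p = 0.123). It passed without replicates 4 and 5, at 0.54 (edgeR adjusted p = 0.0484), and without replicate 5, at 0.56 (0.0322).

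In all, 10 of the 45 genes were kept by the filter in no comparison: CMPK2, EPSTI1, IFI27, MX1, MX2, PSMB8, PSMB9, TRIM22, UBE2L6 and XAF1. Of these MX1, MX2, TRIM22, PSMB8, PSMB9 and XAF1 had at most 3 counts in each of the 24 libraries. PSMB9, an immunoproteasome subunit, had no count at all, and its partner PSMB8 had 2 counts, both in PGCC. XAF1, a pro-apoptotic factor, had 1. Differences in these genes were not detectable in these counts. Other rows of the annotation cover TRIM22 wholly and PSMB9 over 63.7% of its span, in part on the same strand, so the counts of these genes are uncertain as well. IFI27 had 14 counts over the PGCC libraries and 41 over those with LCL521, against 4 and 10 in parental cells without and with it. With no filter, its log2 fold change between PGCC and parental cells, both with LCL521, was 1.90 (edgeR adjusted p = 0.0168). For LCL521 in PGCC, again with no filter, IFI27 did not pass (log2 1.55, edgeR adjusted p = 0.851). Of the 41 counts in PGCC with LCL521, replicates 4 and 5 held 13 each. Among the 11 genes matched to a promoter and not tested in the first comparison, 6 held the ISRE letters: MX1, RSAD2, IFITM1, IFI27, PSMB8 and EPSTI1. Among the 22 matched genes that rose, 16 held them. Those that rose without these letters in the window were STAT2, IRF1, HERC6, OAS1, SP100 and SAMD9L. The GAS letters stood in 3 of the 22 that rose (IRF1, OAS1 and BST2) and in 6 of the 11 not tested. They also stood in IFI35, which did not pass.

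The genes around this list were read from further lists. Interferons themselves were nearly absent: 21 of 22 ligand genes were in the table, and none was kept by the filter. All ligands together had 25 counts over the 6 parental libraries, of which 20 belonged to IFNE, an epithelial interferon. The libraries of parental cells under LCL521 had 21, with 20 of IFNE. PGCC had 38, with 22 of IFNE, and under LCL521 they had 53, with 42 of IFNE. IFNB1, the interferon beta that most cells make first, had no count in the 12 parental libraries, 6 counts in PGCC and 5 in PGCC with LCL521. IFNG had none. At the receptors, 1 of 6 genes was higher in PGCC and none was lower, a share no larger than the 23.1% of all genes tested that were higher. This was IFNLR1, the lambda receptor chain (log2 0.84, edgeR adjusted p = 0.0294, and 0.0577 with the harvest as a block).

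Of 7 tested genes of JAK-STAT signalling and its factors, 2 were higher and none was lower, beside 23.1% of all genes tested that were higher and 24.3% that were lower, so the count is no result about the list. IRF7, the factor that amplifies interferon production, rose by 0.71 (edgeR adjusted p = 0.0175) and IRF3, the factor that the nucleic acid sensors activate, by 0.62 (edgeR adjusted p = 2.98e-03). TYK2 did not pass without the block (log2 0.33, edgeR adjusted p = 0.0688) and passed with it (6.15e-03). Of the inhibitors, 2 of 4 tested were higher and 2 lower, a count too small to read against those shares. SOCS1, which blocks JAK kinases, went from 0.175 to 1.2 CPM in parental cells to 1.51 to 5.67 CPM in PGCC, 4.96-fold (edgeR adjusted p = 6.17e-04). SOCS3 rose by 0.60 on the log2 scale (edgeR adjusted p = 0.0130), PIAS1 fell by 0.30 (0.0233) and PTPN2 fell by 0.33 (0.0425).

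Of 9 tested genes of nucleic acid sensing, 6 were higher in PGCC and 2 were lower, beside 23.1% and 24.3% of all genes tested. The RNA sensors DDX58 (RIG-I) and IFIH1 (MDA5) rose most. DDX58 went from 3.67 to 5.45 CPM in parental cells to 15.9 to 31.4 CPM in PGCC, a log2 fold change of 2.28 ± 0.20 (edgeR adjusted p = 7.64e-07), and IFIH1 rose by 1.77 ± 0.24 (edgeR adjusted p = 4.12e-05). The kinase IKBKE rose by 1.33, the DNase TREX1 by 1.09, the adaptor TMEM173 (STING) by 0.68 and the DNA sensor CGAS by 0.62. The ranges of TREX1, TMEM173 and CGAS overlapped. TREX1 had 1.52 to 3.25 CPM in parental cells (median 2.31) and 2.49 to 9.16 CPM in PGCC (median 3.62). TBK1, the kinase that shares its role with IKBKE, fell by 0.39 (edgeR adjusted p = 3.02e-03), and ADAR, which edits double-stranded RNA, fell by 0.24 (edgeR adjusted p = 0.0192). A list of 57 other interferon-stimulated genes held 34 that were tested, of which 18 were higher, 4 were lower and 12 did not pass, beside the same shares of all genes, with a median log2 fold change of 0.48. When only parental libraries were compared, 30 genes of this list were tested, so some of the 34 entered through PGCC. The largest rise among them was in APOL1 (log2 3.81 ± 0.44, edgeR adjusted p = 9.23e-06). APOL1 had 6 counts over the 6 parental libraries and 99 over the 6 PGCC libraries. It entered through PGCC, where it is high, so its rise is not separate from the filter. The largest fall was in WARS, a tryptophan tRNA synthetase (-1.41 ± 0.24, edgeR adjusted p = 3.31e-04).

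Replicates 4 and 5 stood apart from replicates 1, 2, 3 and 6 in a few of the genes and in every condition alike. What differed between these harvests is not given in the labels. Among the 35 genes kept by the filter over all 24 libraries, GBP1, IRF1 and IFIT5 were lower in replicates 4 and 5. They lay below every other library of the same condition, in all 4 conditions, and SP100 lay above. The share of all genes that stood apart in this way is not given here, so this is no result about the list. In PGCC, GBP1 had 1.85 and 2.87 CPM in replicates 4 and 5 against 9.60 to 10.1 CPM in the others, and in parental cells 0.058 and 0.349 CPM against 0.928 to 1.96 CPM. GBP1 was higher in PGCC on either side: the mean of its paired log2 differences was 2.74 over replicates 1, 2, 3 and 6 and 3.09 over replicates 4 and 5. For IRF1 these differences were 1.10 and 1.02, for SP100 0.83 and 0.80, and for IFIT5 -0.90 and -0.52. In replicates 1, 2, 3 and 6 alone, 30 of 34 tested genes were higher in PGCC and 2 were lower: IFI35, IRF9 and RSAD2 joined those higher, USP18 left them, and IFITM2 joined IFIT5. Over all genes this fit called 7543 of 13809 in either direction, compared with 6541 of 13812 with all replicates. The split of these calls into higher and lower is not given here, so the 30 and 2 have no matching share.

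**Figure D3:**
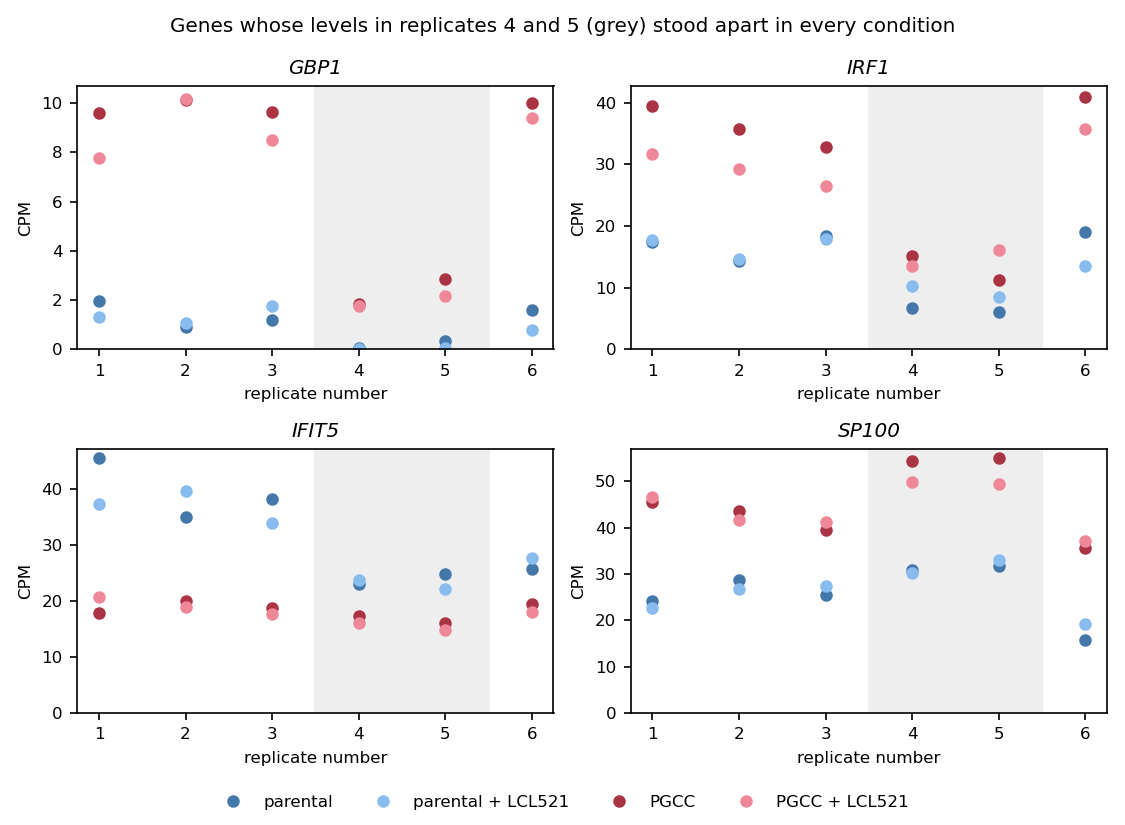
CPM of GBP1, IRF1, IFIT5 and SP100 (vertical axes from 0) by replicate number, with 1 point per condition and the replicates 4 and 5 shaded. GBP1, IRF1 and IFIT5 dip and SP100 rises in the shaded band in all 4 conditions, while PGCC (red) stays above parental cells (blue) within each replicate for GBP1, IRF1 and SP100 and below for IFIT5.

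Without the harvest as a block, LCL521 for 5 h moved none of these genes past the threshold. In parental cells 0 of 29 tested genes passed in edgeR and 0 in DESeq2. In edgeR 0% of the 13277 genes tested passed, and 71 had an unadjusted p under 0.05, 0 of them among the 29. This fit leaves the differences between harvests in its error, so it is conservative, and with the block 115 genes passed. The smallest p-values were those of IFIT2 (log2 0.34, 95% interval -0.12 to 0.80, edgeR adjusted p = 1), PARP9 (log2 0.16) and IFIT3 (log2 0.24). IFIT2 lay between 21.5 and 49.9 CPM without LCL521 and between 29.4 and 64.5 CPM with it. These ranges overlapped widely, yet the library with LCL521 was the higher in 6 of 6 harvests, and with the harvest as a block IFIT2 passed (log2 0.33 ± 0.06, edgeR adjusted p = 0.0138), when 0.520% of all genes tested were called higher. IFIT3 and STAT2 were also higher in 6 of 6 harvests and did not pass with the block (edgeR adjusted p = 0.167 and 0.202). No other gene of the list passed with the block.

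In PGCC 0 of 35 tested genes passed in edgeR and 0 in DESeq2. In edgeR 1 of 14151 genes (0.00707%) passed, and 218 had an unadjusted p under 0.05, 0 of them among the 35. This fit too leaves the differences between harvests in its error. With the block 0 of the 35 passed, when 1.65% of all genes tested did. The smallest p-values were those of RSAD2 (log2 0.48, 95% interval -0.11 to 1.06), OAS2 (log2 -0.41, 95% interval -0.91 to 0.10) and USP18 (log2 -0.21, 95% interval -0.49 to 0.07), each with an edgeR adjusted p of 1. The abundant genes were bounded closely. The 95% interval of the log2 fold change was -0.16 to 0.12 for ISG15, -0.17 to 0.18 for OAS3 and -0.25 to 0.12 for SAMD9. IRF1 was lower with LCL521 only when replicates 4 and 5 were left out and the harvest was a block (log2 -0.28 ± 0.06, edgeR adjusted p = 0.0146).

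The difference between the effects of LCL521 in PGCC and in parental cells was tested over all 24 libraries. Of 35 genes tested, 0 passed in edgeR and 0 in DESeq2. In edgeR 0% of all 14555 genes tested passed, with or without the block, and 60 had an unadjusted p under 0.05, 0 of them among the 35. The smallest p-values belonged to IFIT2 (log2 -0.33, 95% interval -0.82 to 0.17), IRF9 (log2 -0.97, 95% interval -2.71 to 0.78) and USP18 (log2 -0.25, 95% interval -0.74 to 0.25), each with an edgeR adjusted p of 1. The intervals for rare genes were wide enough to hold differences of several fold.

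**Figure D4:**
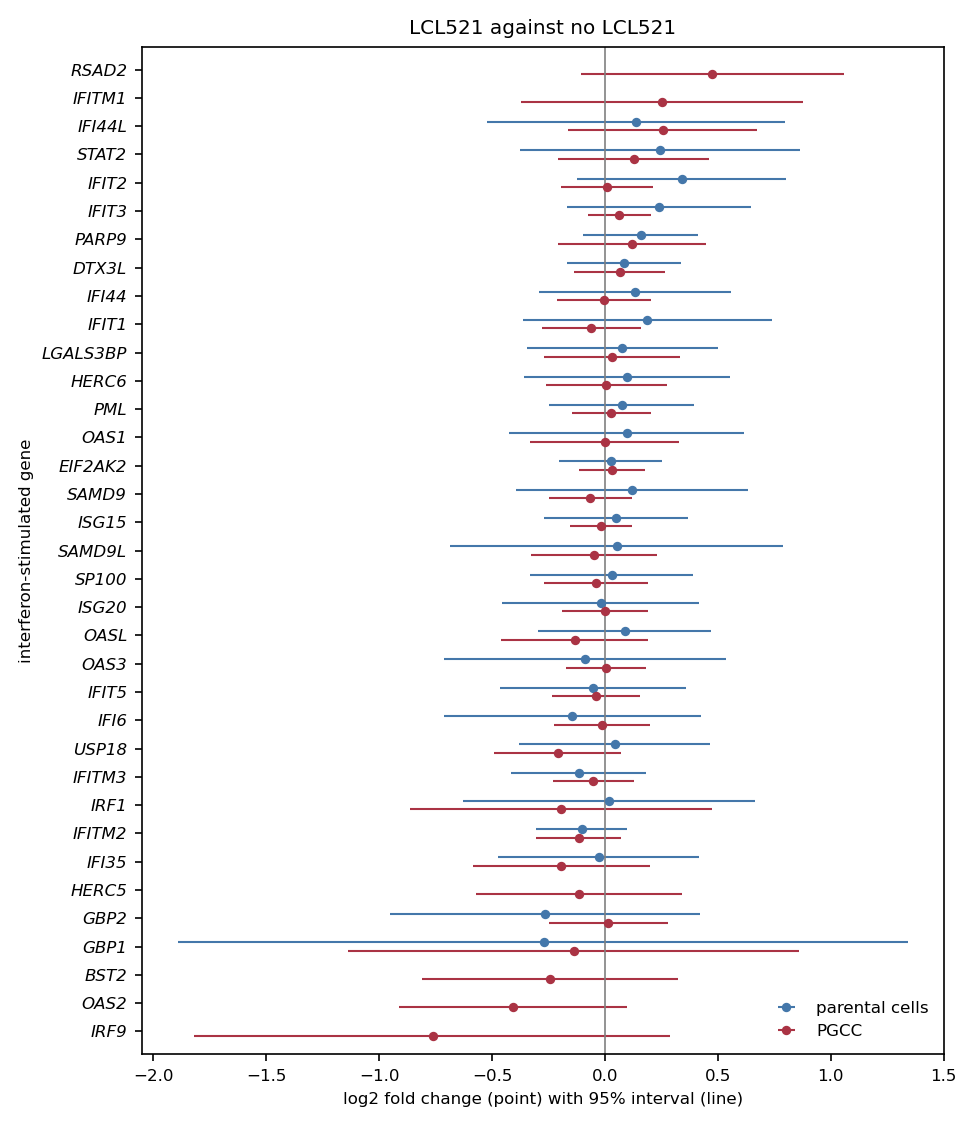
Log2 fold change (point) and 95% interval (line) of LCL521 against no LCL521 in parental cells (blue) and in PGCC (red), for each interferon-stimulated gene tested. All lines cross 0, those of PGCC are mostly the shorter, and the widest belong to scarce genes such as GBP1 in parental cells (-1.89 to 1.34) and IRF9 in PGCC (-1.82 to 0.29).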

How the data were processed

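Per the sources, the authors had paired-end reads aligned with STAR and counted on genes with HTSeq on hg19, and deposited raw counts per gene without normalization. The submitters' processing notes also name CASAVA and DESeq2. Whether counting used strand is not stated. The labels set LCL521 on day 5, which the methods of the paper count as day 3.

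Counts were analysed with edgeR 4.0.16 and limma 3.58.1 in R 4.3.3. Genes were filtered with filterByExpr (minimum count 10, minimum total 15), scaled by TMM and tested with the quasi-likelihood test on the 12 libraries of each comparison, or all 24 for the interaction. P-values were adjusted by Benjamini-Hochberg over all genes tested. Log2 CPM carries a prior count of 2, and SE is the size of the change over the root of the F statistic. The procedure was tested on simulated counts. Alternatives were DESeq2 1.42.0, RLE factors, library totals, other filters, the replicate block, all libraries in one fit, and replicates left out.

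Replicate numbers mark parallel harvests, and same-numbered libraries deviated together (correlations from 0.171 to 0.869). Total counts lay between 14835246 and 19906601. No pair of the same condition was identical (chi-square per degree of freedom 4.69 to 110). Genes were named by a rule: all members, the 12 largest changes in full, the smallest p-values under LCL521 and called pathway genes. Members and lists were chosen with earlier results of these data known. Values of some genes of the marker and pathway lists are not reported here.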

Additional observations from a re-analysis of the deposited data

Results flagged for a closer look

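In 4 of 140 sets of 6 libraries (a gene in a condition) the highest or lowest library lay far from the other 5, with a gap to the nearest that took up most of the range (Dixon's test, 95% level). Chance gives about 1 in 20. Parental replicate 6 had 0.968 CPM of IRF9, with the next at 0.361 CPM. PGCC replicate 1 had the lowest HERC6 at 4.94 CPM, with the next at 6.23 CPM. Parental replicate 4 had 0.406 CPM of OAS2, with the next at 0.180 CPM, which at this level is a matter of few counts. PGCC with LCL521 replicate 4 had 36.5 CPM of PML, with the next at 30.4 CPM.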

How the results depend on the processing

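The number of interferon-stimulated genes higher in PGCC was between 22 and 31 under all alternatives, against 28, and between 22 and 30 with LCL521, against 29. The lowest values come from requiring at least 10 counts in every library, which left 26 genes to test. The number lower was 1, and 2 with replicates 1, 2, 3 and 6 only, with or without the replicate block, in both comparisons, where IFITM2 was added. With LCL521 in parental cells the number higher was 0, and 1 with the replicate block (IFIT2). With LCL521 in PGCC the number lower was 0, and 1 with replicates 1, 2, 3 and 6 only with the replicate block (IRF1). The replicate block changed no other call of these genes. No result changed direction among those recomputed. Among the genes tested in the comparisons of PGCC with parental cells and the 3 with the smallest p-values under LCL521, 1085 values under an alternative that also tested the gene kept their direction and side of the threshold, 10 gained a call and 11 lost it. The calls of STAT2, IRF1 and USP18 depended on single replicates. Library totals in place of TMM moved the median of all genes from -0.03 to 0.07. Low counts left 10 of the 45 genes untested in every comparison.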
